A study of Homo sapiens with 10 samples.

Results

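HSF1 is the transcription factor that switches on chaperone genes when proteins misfold, and FBXW7 is the substrate-binding subunit of a ubiquitin ligase that marks proteins for degradation. The regions described here compare where HSF1 peaks were called after heat shock in cells with and without FBXW7. HSF1 was mapped by chromatin immunoprecipitation and sequencing in HCT116, an established human colon cancer line, either unmodified (WT) or with FBXW7 knocked out (KO). Both lines were held at 42 °C for 1 h, and each gave 2 libraries, precipitated with 5 µg of an HSF1 antibody and called against the input of the same line and condition. The number of KO clones is not given in the sources used here, nothing says that replicates were separate cultures, and peak lists hold no reading of FBXW7 itself.

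Overlapping peaks of the 4 heat shock lists were joined into 4448 regions. Of these, 364 belong to 3 classes: 304 regions had a peak in both KO lists and in no WT list (called KO-only here, 6.83% of all regions), 56 had a peak in all 4 lists (1.26%) and 4 had a peak in both WT lists and no KO list (WT-only, 0.0899%). These classes are the definition and not a finding. Joining the 2 untreated lists as well gives 6597 regions in the whole series. The lists held 1566 and 3257 peaks in KO replicates 1 and 2 and 225 and 131 in WT replicates 1 and 2, a log2 ratio of 3.72 (p = 0.333 in a two-sided exact permutation test over libraries, where 2 against 2 cannot go lower). Once the lines separate, such a p is fixed by the number of libraries and does not measure the spread between them. That spread may be technical. Read depth is unknown, and the authors' peak scores are not known to share a scale, so each region is described by its rank within its own list, where rank 1 is the highest score. A region missing from a list passed no threshold there, which does not show that HSF1 was absent. Depth, enrichment and the width of the called peaks cannot be told apart from the genotype.

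In resting cells HSF1 is held inactive by chaperones. Heat frees it to form trimers, which bind the heat shock element, a run of inverted GAA units in the promoters of chaperone genes. The products fold proteins (HSP70, HSP90, the chaperonins), hand clients between chaperones (co-chaperones) or mark damaged proteins (ubiquitin). FBXW7 is known to recognise HSF1 as one of its substrates.

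No file used here gives genes in hg19, the build of the peaks, so every gene name at a region comes from memory and is a limit on all that follows. After the leading regions had been seen, 157 remembered gene starts were tried against the 4448 regions, and 72 lay within 1500 bp of one. Of these, 59 were kept and 13 dropped, and the remembered position of 14 was then shifted by at most 500 bp. Of those shifts, 11 moved a position from outside into the region, 2 moved it within the region, and 1, at DNAJB1, moved it from one region to another of a different class. Another 9 names, for regions inside genes, were given by eye. The names cover 59 of the 364 classed regions. All 65 symbols were found on the same chromosome in a RefSeq gene table of GRCh38, in the same order on each of the 12 chromosomes with at least 3 names, but the names had already been picked for lying near a region, so this checks them only loosely. Counts of named genes therefore describe a picked set, and a gene that is not named was not shown to lack a peak. The coordinates are those of the deposited peaks.

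The heat shock element searched for was GAA, 2 free bases, TTC, 2 free bases and GAA, which has 9 fixed bases, on either strand. It was sought in RefSeq promoter sequences (GRCh38.p14, 250 bases before to 50 after each gene start), matched to the named genes by symbol and not read from the peaks. The windows that follow show a match in the promoter part before the start, with the matching bases in capitals, as examples of the element in genes named at the regions. Whether a peak covers the match was not tested. The first 6 are genes of all-4 regions, and the next 2 are genes of KO-only regions.
HSPD1: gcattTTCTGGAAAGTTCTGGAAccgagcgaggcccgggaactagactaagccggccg
HSP90AA1: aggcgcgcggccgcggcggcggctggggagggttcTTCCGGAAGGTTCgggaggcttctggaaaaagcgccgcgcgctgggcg
HSP90AB1: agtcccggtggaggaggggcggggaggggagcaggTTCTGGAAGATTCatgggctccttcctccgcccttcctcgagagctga
PGAM5: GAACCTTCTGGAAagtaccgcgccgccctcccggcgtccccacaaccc
ABHD3: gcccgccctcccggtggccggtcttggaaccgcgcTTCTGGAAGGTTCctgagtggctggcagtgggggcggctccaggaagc
HSPA8: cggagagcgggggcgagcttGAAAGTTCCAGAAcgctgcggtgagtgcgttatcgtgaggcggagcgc
DNAJB6: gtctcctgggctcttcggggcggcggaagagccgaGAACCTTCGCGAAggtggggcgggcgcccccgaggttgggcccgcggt
HSPA6: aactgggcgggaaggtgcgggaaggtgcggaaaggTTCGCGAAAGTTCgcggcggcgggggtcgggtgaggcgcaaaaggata

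A further pair of genes named at KO-only regions, HSPA1B and DNAJB1 (the latter with an uncertain position, given with its ranks), held the element only when 1 mismatch among the 9 fixed bases was allowed, and their capitals mark that looser match. CHORDC1 and SERPINH1, at regions of both KO lists and 1 WT list, held it exactly.
HSPA1B: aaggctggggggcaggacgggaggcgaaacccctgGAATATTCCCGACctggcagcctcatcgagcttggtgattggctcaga
DNAJB1: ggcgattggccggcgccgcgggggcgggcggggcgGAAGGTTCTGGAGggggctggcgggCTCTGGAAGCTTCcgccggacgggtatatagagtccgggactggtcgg
CHORDC1: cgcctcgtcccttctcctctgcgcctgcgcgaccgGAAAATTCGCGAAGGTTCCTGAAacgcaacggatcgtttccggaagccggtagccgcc
SERPINH1: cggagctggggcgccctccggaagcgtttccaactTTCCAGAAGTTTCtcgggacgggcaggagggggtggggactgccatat

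An exact element was present in 7 of the 25 named all-4 genes with a promoter sequence and in 2 of the 20 KO-only genes, against 0.608% of the 27305 genes in the promoter table. With 1 mismatch allowed the counts were 11 of 25 and 10 of 20, against 7.60% of all genes. The KO-only genes counted here include DNAJB1, whose position is uncertain. Many of the named genes are textbook HSF1 targets, and all were picked as told above, so these counts describe the named genes and not the classes. The HSF1 gene itself was left out of the search. A promoter without a match lacks only these letters in this window.

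The regions of all 4 lists were led by the chaperone genes that HSF1 is best known for. The shared start of HSPD1 and HSPE1, which encode the mitochondrial chaperonin HSP60 and its lid HSP10 (chr2:198363984-198365605), ranked 1 and 2 in KO replicates 1 and 2 and 1 in each WT replicate. HSP90AA1, the inducible cytosolic HSP90 (chr14:102552717-102554303), ranked 3 and 2 in KO and 3 and 4 in WT. HSP90AB1, its constitutive partner (chr6:44213452-44216257), ranked 7 in every one of the 4 lists. The lines thus overlapped or tied in rank at these 3 regions. HSPH1, the HSP110 protein that recharges HSP70 (chr13:31735472-31736955), ranked 6 and 5 in KO and 2 and 3 in WT. At UBB, a polyubiquitin gene (chr17:16283420-16284956), the ranks were 19 and 8 in KO and 9 and 9 in WT. Scores at the top need care, since HSPD1/HSPE1, HSP90AA1 and PWWP3A all carried exactly 3100 in KO replicate 2 and shared rank 2 there.

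Genes outside the chaperone families stood among the same leaders. USPL1, which encodes a SUMO protease (chr13:31190920-31192555), ranked 2 and 1 in KO and 4 and 2 in WT. A region inside STARD13 (chr13:34116243-34117678) ranked 5 and 6 in KO and 5 in both WT lists. PGAM5, a mitochondrial phosphatase (chr12:133286374-133287916), ranked 8 and 12 in KO and 10 and 8 in WT. TRA2B, a splicing regulator (chr3:185655323-185656620), ranked 10 and 14 against 12 and 10, and ATL3, a shaper of the endoplasmic reticulum (chr11:63438210-63439700), ranked 17 and 16 against 14 and 15. Ranks of the lines interleaved or lay within a few places of each other at these 5 regions. PWWP3A (chr19:1353842-1355292) ranked 4 and 2 in KO but 13 and 12 in WT.

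**Figure D1:**
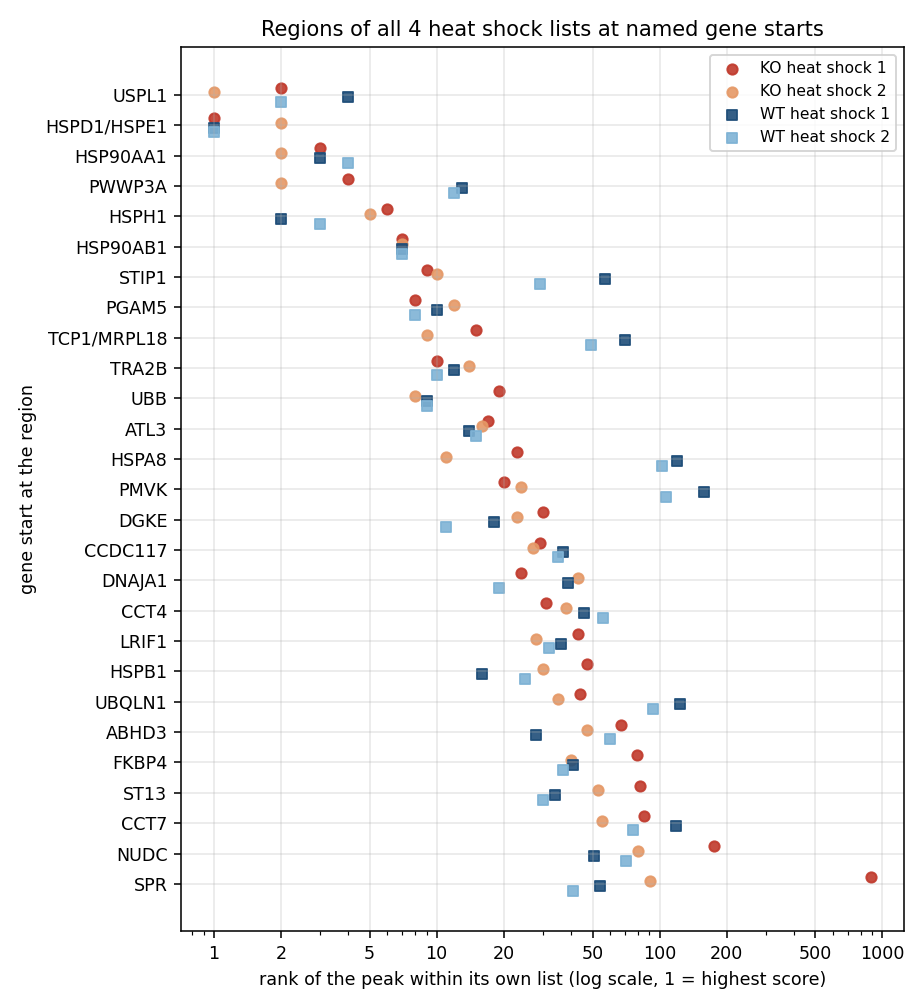
Rank of the peak within its own list (log axis, 1 is the highest score) at 27 of the 28 regions of all 4 lists with a named gene start; circles are the 2 KO and squares the 2 WT heat shock libraries. HSP90AB1 sits at rank 7 in each list, whereas STIP1, TCP1/MRPL18, HSPA8, PMVK and UBQLN1 have their KO ranks well to the left of their WT ranks.

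To compare the lines over lists of the same length, the 56 regions were ranked among themselves in each library. The order was shared more within a line than between lines: Spearman's rho over the 56 regions was 0.86 between the KO replicates and 0.75 between the WT replicates, and 0.38 to 0.52 between a KO and a WT library. These are descriptions over regions that share libraries, and they carry no test. The ranks of the lines did not overlap at 31 of the 56 regions (55.4%), with both KO ranks better at 15 (26.8%) and both WT ranks better at 16 (28.6%).

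Constitutive HSP70, a co-chaperone and subunits of the TRiC chaperonin stood relatively higher in KO. HSPA8, the HSP70 that cells make at rest (chr11:122932122-122933708), was 19th and 11th of the 56 in KO and 52nd and 51st in WT, the widest gap in this direction (36.5 places between the mean ranks). In the full lists that is rank 23 and 11 in KO, and rank 120 and 102 in WT, out of 225 and 131 peaks. PMVK, an enzyme of the mevalonate pathway (chr1:154908636-154910063), followed with a gap of 35.5 places, at ranks 17 and 20 in KO against 56 and 52 in WT. The start shared by TCP1, a TRiC subunit, and the mitochondrial ribosome gene MRPL18 (chr6:160210199-160211604) ranked 13 and 9 against 47 and 38. A region inside PRKCA (chr17:64562651-64564238) ranked 12 and 13 against 45 and 40. STIP1, which links HSP70 to HSP90 (chr11:63952261-63954313), ranked 9 and 10 against 44 and 25. Other chaperone-related genes among the 15 were UBQLN1, a shuttle to the proteasome (chr9:86322377-86323849; 34 and 26 against 53 and 50), and the TRiC genes CCT4 (27 and 29 against 38 and 41) and CCT7 (43 and 37 against 51 and 45). Some WT scores behind these gaps were near the lowest score of about 50. They were 66.35 and 53.69 at HSPA8, 56.74 and 53.15 at PMVK, and 64.66 and 55.14 at UBQLN1. Those at TCP1/MRPL18, PRKCA and STIP1 ran from 68.92 to 98.36, and the medians of the 56 were 118 and 96.0. The last WT places are thus set apart by few score units. The untreated lists do not repeat all of these gaps. HSPA8 ranked 11 in untreated KO and 13 in untreated WT, a list of 79 peaks, and TCP1/MRPL18 ranked 12 and 11. PRKCA (36 and 16) and CCT4 (28 and 9) ranked better in untreated WT, though the untreated lists differ in length. UBQLN1 ranked 27 and 72. STIP1, PMVK and CCT7 ranked 13, 96 and 85 in untreated KO and had no peak in untreated WT.

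The regions that stood relatively higher in WT were of another kind. The 5 widest gaps in this direction lay at chr1:234911927-234919366 (37.5 places, 54th and 53rd in KO against 10th and 22nd in WT), chr1:142535237-142540183 (31 places), chrY:13480990-13486651 (29.5 places), chr2:91813895-91819614 (26 places) and chr3:75695233-75700225 (24.5 places). These regions are long, between 4947 and 7440 bp. Among the 16 regions with better WT ranks, 10 were wider than 2000 bp, against 2 of the 15 with better KO ranks. Both WT peaks were wider than both KO peaks at all 56 regions. The width thus comes largely from the same peaks that give the WT rank, and the 2 are not independent. Some regions were marked as next to a centromere in hg19, from memory and after they were seen, among them 6 of these 16, 0 of the 15 and 1 of the 25 that overlapped. KO-only regions were not looked through for this, and a distance rule around the marked positions was then applied to every class. Within 100 kb of a marked position lay 7 of the 56 all-4 regions (12.5%), 11 of the 304 KO-only (3.62%) and 2 of the 4 WT-only regions, against 1.73% of all 4448. No KO-only region was itself marked, whereas the 7 and the 2 are the marked regions themselves. KO-only regions near an unmarked centromere are not counted, so these shares cannot be compared between classes. Of the 11 KO-only regions, 7 were on chromosome Y, where the best ranked 96 and 255 (chrY:13479461-13479774). Reads from repeats were not screened. Gene starts with non-overlapping, better WT ranks included ST13, an HSP70 co-chaperone (41 and 36 in KO against 29 and 26 in WT), DGKE (26 and 19 against 17 and 11) and HSPH1 (6 and 5 against 2 and 3). Ranks within a fixed set are relative, so a region placed high lowers the others. Ranked only among the 43 regions no wider than 2000 bp, a setting chosen after seeing the data, 21 did not overlap (10 better in KO and 11 in WT) and the gap of HSPA8 fell from 36.5 to 25.5 places.

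**Figure D2:**
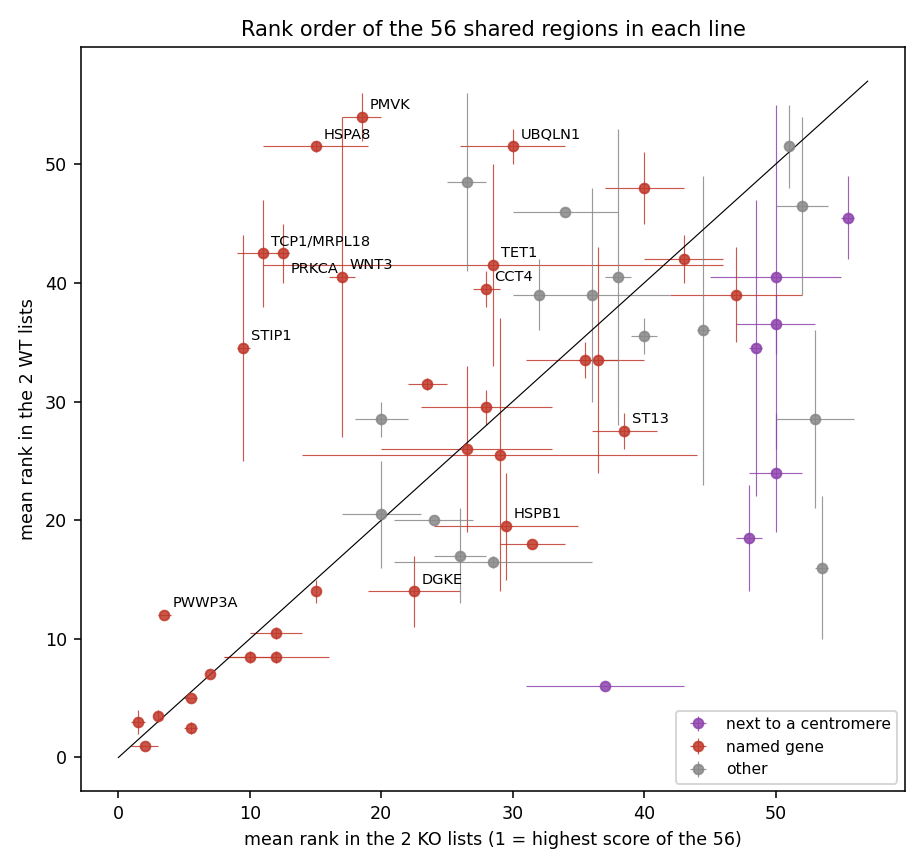
Mean rank of each of the 56 shared regions in the 2 KO (x axis) and the 2 WT (y axis) heat shock libraries, where 1 is the highest score; bars span the 2 replicates and the line marks equal rank. HSPA8, PMVK, TCP1/MRPL18, PRKCA and STIP1 lie far above the line, and the 7 regions marked as next to a centromere lie below it.

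Peak centres of the lines were close at most of the shared regions, and peak widths differed. Within the 56 regions the centres of the strongest peaks were a median of 40.25 bp apart between the KO replicates, 63.0 bp between the WT replicates and 58.25 to 86.5 bp between a KO and a WT library. They lay within 200 bp at 48 of the 56 regions between the KO replicates and at 46 between the WT replicates, but at only 38 to 42 between a KO and a WT library. Both WT peaks were wider than both KO peaks at 56 of the 56, with medians of 1421 and 1408.5 bp in WT and 487 and 657.5 bp in KO. Since wide WT peaks set the extent of a joined region, a KO-only region is narrower by construction (median 406.5 bp, against 1498.5 bp for the all-4 regions).

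Whether a KO region was also called in WT went with its KO rank. The 420 regions with a peak in both KO lists were put in order of the poorer of their KO ranks and taken 60 at a time. Of the 60 best (ranks up to 79), 36 had a peak in both WT lists, 11 in 1 and 13 in none. Of the next 60 (ranks 81 to 163), 7 were in both and 38 in none, and in each later step 47 to 53 of 60 were in none. All of the first 120 had a peak in untreated KO, against 36 of the last 60. The 13 strong KO regions without a WT heat shock peak became 21 when WT replicate 1 was left out and 17 when replicate 2 was.

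**Figure D3:**
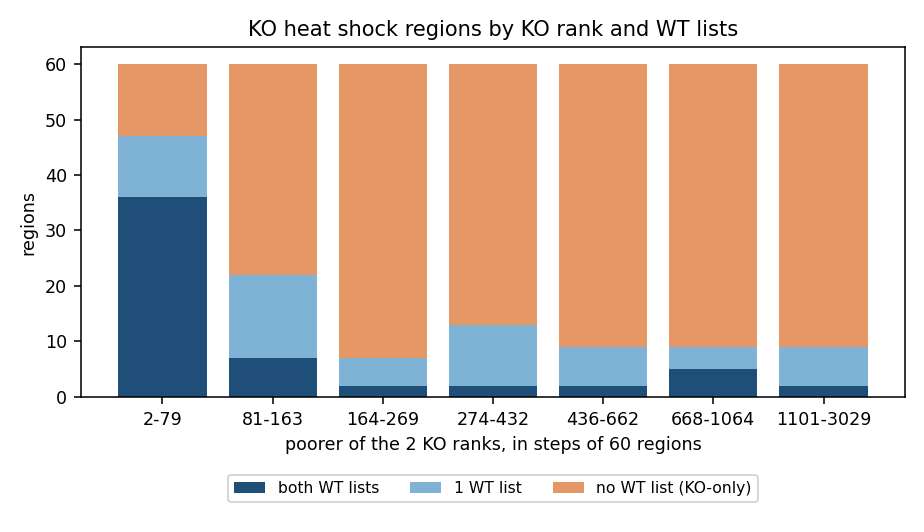
The 420 regions of both KO heat shock lists, in steps of 60 by the poorer of their 2 KO ranks (x axis), with the number found in both, 1 or neither WT heat shock list (y axis). The share without a WT peak grows from 13 of 60 in the first step to 38 in the second and stays between 47 and 53 after it.

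Of the 12 KO-only regions with the best ranks, 7 were not named, 4 were named at genes of protein folding or turnover, and 1 at EWSR1. EWSR1, an RNA-binding protein gene (chr22:29664109-29664977), led all 12 with ranks 13 and 15 in KO replicates 1 and 2 and 17 in untreated KO. Scores there were 703, 1553 and 1199. PTGES3, the HSP90 co-chaperone p23 (chr12:57081937-57082438), ranked 46 and 49. CACYBP, a scaffold of ubiquitin ligases (chr1:174968931-174969409), ranked 50 and 63. UBE2B, a ubiquitin-conjugating enzyme (chr5:133706413-133707057), ranked 53 and 69, and ZFAND2A, a stress-induced proteasome partner (chr7:1199689-1200237), ranked 72 and 59. The replicates gave these 5 genes similar places. In untreated KO, PTGES3 ranked 25, UBE2B 23 and ZFAND2A 46, each better than in both KO heat shock lists. CACYBP ranked 76 there, poorer than in both. Unnamed regions among the first 12 were chr19:18740515-18741171 (39 and 22), chr17:62703132-62703757 (37 and 58), chr19:2398602-2399169 (63 and 60), chr19:18402390-18403063 (62 and 65), chr7:73417522-73418291 (58 and 73), chr19:49164085-49164668 (69 and 74) and chr1:16161758-16162922 (77 and 17).

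Strongly heat-inducible chaperone genes were also in this class. HSPA1B, an inducible HSP70 gene nearly identical to its neighbour HSPA1A so that reads may fit either (chr6:31794931-31795650), ranked 95 in KO replicate 1 and 29 in replicate 2. Without heat, it ranked 52 in untreated KO, between its 2 heat shock ranks. HSPA6, an HSP70 gene with little expression at rest (chr1:161494036-161494339), ranked 242 and 430 and had no peak in untreated KO. DNAJB1, the main inducible HSP40 (chr19:14628563-14628973), ranked 238 and 206, and 850 in untreated KO. The DNAJB1 start as first remembered lay instead in the neighbouring region chr19:14629119-14629332, found in KO replicate 2 alone at rank 634, so that its place among the KO-only genes rests on a shift of 300 bp. Neither region had a WT heat shock peak. BAG3, which guides clients to autophagy (chr10:121410734-121411197), ranked 81 and 100, and 91 in untreated KO. None of these 4 KO-only regions had a peak in untreated WT either.

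Among the other families, HSPA9, the mitochondrial HSP70 (chr5:137910744-137911375), ranked 130 and 52. The DNAJ co-chaperone genes DNAJA4 (chr15:78556545-78556984; 59 and 140), DNAJB6 (chr7:157129357-157129756; 122 and 119) and DNAJB2 (chr2:220143938-220144188; 546 and 384) were KO-only, whereas DNAJA1 (chr9:33024356-33025861) was in all 4 lists at ranks 24 and 43 in KO and 39 and 19 in WT. The TRiC chaperonin, a ring that folds actin and tubulin, was spread over both classes. TCP1, CCT4 and CCT7 were in all 4 lists. CCT3 (chr1:156307797-156308242; ranks 100 and 106), CCT5 (chr5:10249515-10250710; 118 and 41) and CCT6A (chr7:56119376-56119728; 572 and 427) were KO-only, and CCT8 (chr21:30445595-30445905) had a peak in KO replicate 2 alone, at rank 656. The KO ranks of TCP1 and CCT4 were better than those of these KO-only genes in both replicates, whereas CCT7 (85 and 55) and CCT5 crossed between replicates.

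Counted over the named starts, chaperone, ubiquitin and HSF1-related genes lay at 16 of the 56 all-4 regions and at 15 of the 304 KO-only regions. These are the regions that were named and not a survey of the families, so the counts do not compare the classes. Other KO-only starts were BANF1, a chromatin protein (chr11:65769504-65770208; ranks 105 and 62), RANGAP1 of nuclear transport (chr22:41682136-41682721; 68 and 109), MORF4L2 (chrX:102942741-102943196; 126 and 77), the glycolysis gene PGK1 (chrX:77359251-77359659; 154 and 116), the translation factor EIF4A2 (chr3:186501333-186501783; 132 and 161) and the methionine cycle gene MAT2A (chr2:85766511-85766952; 179 and 96).

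**Figure D4:**
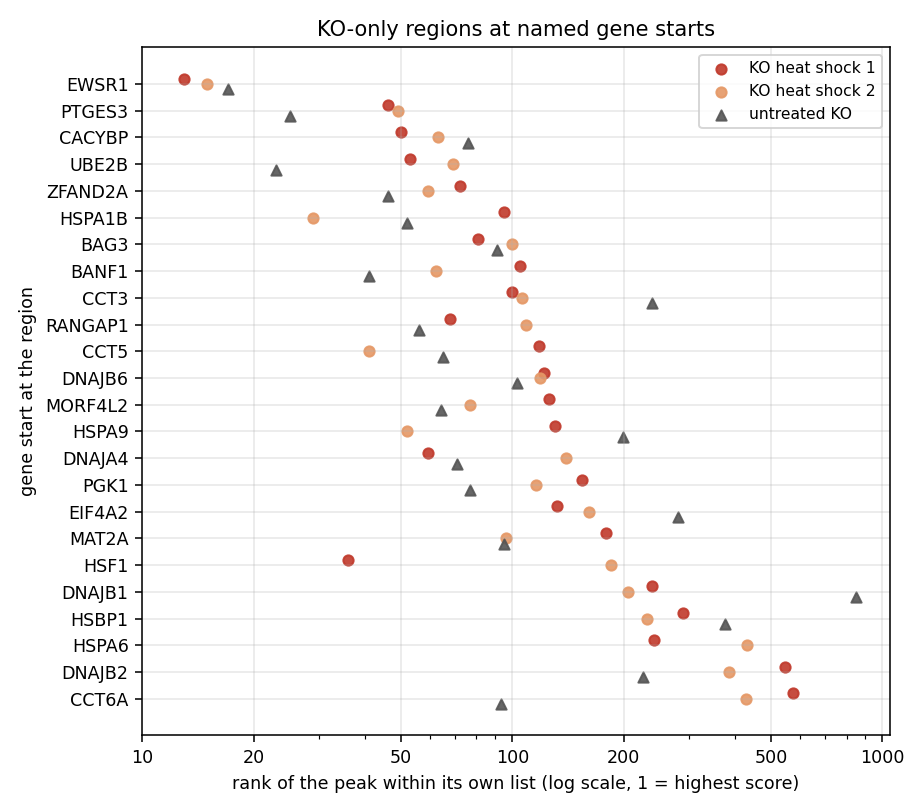
Rank within its own list (log axis, 1 is the highest score) at the 24 KO-only regions with a named gene start, in the 2 KO heat shock libraries (circles) and untreated KO (triangles). EWSR1 leads in each, and HSPA6 and HSF1 have no untreated KO point because no peak was called there. DNAJB1 is shown by its shifted position.

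The untreated libraries did not enter the classes and show which classed regions also had a peak without heat. A peak in untreated KO lay at 55 of the 56 all-4 regions (98.2%, exact Clopper-Pearson 95% interval 90.4 to 99.95) and at 244 of the 304 KO-only regions (80.3%, 75.3 to 84.6), against 14.7% of all 4448 regions. A peak in untreated WT lay at 37 of the 56 and at 11 of the 304 (3.62%), against 1.66% of all regions. Most of the 4448 regions are an unlike base: 3852 had a peak in 1 KO list and no WT list, and 7.24% of those had an untreated KO peak. Regions of both KO lists and 1 WT list had one at 55 of 60 (91.7%). The KO-only share thus lies above a base of mostly unreplicated regions and below the other classes with both KO lists. The intervals cover counting error only and take the regions as independent, though some are close neighbours on a chromosome. Each untreated group is a single library. The 11 KO-only regions with an untreated WT peak included PTGES3 (rank 40 there), MAT2A (78) and MORF4L2 (79). They also included chr19:18740515-18741171 (33), chr1:16161758-16162922 (39) and chr19:2398602-2399169 (74), which like PTGES3 are among the 12 KO-only regions with the best ranks. The label KO-only thus holds for the heat shock lists and not for the cell line.

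The classes end where a score meets the caller's limit, which lay at about 50 in each list. Just inside, the all-4 regions had WT scores down to 50.3 (chr2:106535791-106537209, replicate 2). Just outside, 60 regions had a peak in both KO lists and 1 WT list, 44 of them in replicate 1 and 16 in replicate 2. Their WT scores began at 50.5 and 50.6 in replicates 1 and 2, but not all were marginal. They reached 314 in replicate 1 (chr2:133025995-133032062, rank 8) and 115 in replicate 2 (chr9:66857775-66862844, rank 20). A region can thus miss the all-4 class though 1 WT replicate ranks it near the top. They include CHORDC1, an HSP90 co-chaperone (chr11:89955619-89956974; ranks 86 and 54 in KO, and 202 of 225 peaks in WT replicate 1), AHSA1, the activator of the HSP90 ATPase (chr14:77923807-77925159; 98 and 86, and 151 in WT replicate 1), and SERPINH1, the collagen chaperone (chr11:75272564-75273950; 148 and 120, and 28 of 131 peaks in WT replicate 2).

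The gene of HSF1 itself carried 4 of the regions named here, and the replicates differed there. The region at its start (chr8:145515377-145515603) was KO-only, with ranks 36 and 185 in KO replicates 1 and 2 and no peak in untreated KO. A region inside the gene (chr8:145534331-145536247) was in all 4 lists, at 16 and 108 in KO and 44 and 14 in WT. Another pair inside it was in both KO lists and WT replicate 2 only: chr8:145537106-145538577 (11 and 51, and 40) and chr8:145532432-145533996 (18 and 98, and 27). KO replicate 1 placed all 4 far higher than KO replicate 2 did, and untreated KO placed the last 3 at 368, 215 and 252. A region inside TET1 (chr10:70450203-70451856) showed the same split, with ranks 12 and 235 in KO and 97 and 38 in WT. HSBP1, which binds HSF1 trimers (chr16:83841584-83842066), was KO-only at 289 and 231.

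The 4 WT-only regions held no named chaperone gene. They were chr12:162326-167873 (ranks 21 and 43 in WT replicates 1 and 2), chr21:11185744-11187341 (45 and 51), chr4:49104105-49108377 (19 and 80) and chr10:114755699-114758206 (166 and 26), the last inside TCF7L2, a transcription factor of Wnt signalling. Those on chromosomes 21 and 4 are among the regions marked as next to a centromere, a place they share with KO-only regions such as chr21:11140185-11140594 (ranks 668 and 562) and chr4:49156108-49156395 (276 and 1582). Those on chromosomes 12 and 4 also had a peak in untreated WT, at ranks 71 and 35, and no region of the 4 had one in untreated KO. Another 2 regions had a peak in both WT lists and in KO replicate 2 alone, both on chromosome 21 and marked in the same way. When a KO and a WT peak had to have centres within 500 bp to count as one region, 7 regions were WT-only in place of 4.

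The KO-only regions were spread over the chromosomes, with 36 on chromosome 1, 28 on chromosome 17 and 27 on chromosome 19. As a ratio to their share of all 4448 regions, the sex chromosomes held the largest excess. X had 9 KO-only regions of 20 in all (2.96% of the KO-only against 0.450% of all regions) and Y had 14 of 46 (4.61% against 1.03%). Chromosome 19 followed by ratio with 8.88% against 3.69%, which was the largest excess as a difference of percentages. Chromosomes 1 and 17 held 11.8 and 9.21% of the KO-only against 15.2 and 11.7% of all regions. Of the 4448 regions, 3852 had a peak in 1 KO list and no WT list, so a chromosome with few such regions shows an excess without many KO-only regions. On Y, 7 of the 14 lay within 100 kb of a position marked as next to a centromere, and reads from repeats were not screened. These shares are a description, without a test.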

How the data were processed

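HSF1 ChIP-seq peak lists of 4 heat shock libraries were compared, with the 2 untreated lists as further readings, grouped and numbered by their titles. Per the submitters' processing notes, CASAVA, Bowtie 0.12.7, MACS 1.4.2 and hg19 were used, without roles or settings. The authors deposited 1 list per library, not pooled, with a score for each peak; scores were used only to rank or filter peaks within a list. Depth is unknown, and the precision it gives cannot be stated.

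Peaks overlapping by at least 1 bp were joined with pandas 2.3.3 under Python 3.11.15 and the region count was checked with bedtools 2.31.1; joining was also tested on simulated lists. A region takes the score and rank of its highest peak in each list, and positions count from 1. Exact tests and intervals used scipy 1.17.1, and figures matplotlib 3.10.9. The planned shares at promoters and with a heat shock element within peaks were not computed, since no hg19 annotation or genome was used. Motifs were searched in RefSeq promoters instead (GRCh38.p14).

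Named were up to 12 regions per class with the best poorer rank, all regions of classes of 5 or fewer, and the 5 widest rank gaps in each direction. The rule for genes asked for an hg19 annotation. In its place names were given from memory and kept where they fell near a region, with some positions adjusted afterwards, as the report sets out, so counts over the gene lists were not made. Regions called next to a centromere were picked from memory as well, after they were seen. The distance rule around them was added later still. Members, lists and names were chosen with earlier results of these data known. Alternatives were a score of at least 100, joining within 1000 bp, centres within 500 bp, each library left out, and a replicate block. Added after seeing the data were the width limit, the steps of 60 regions, the looser motif, and the checks of ranks and untreated shares under other settings. Some named regions are not reported here.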

Additional observations from a re-analysis of the deposited data

How the results depend on the processing

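Only peaks with a score of at least 100 gave 149 KO-only, 1 WT-only and 22 all-4 regions, of which 8 had non-overlapping ranks (5 better in KO, 3 in WT), and untreated KO held 91.9% and 100% of the KO-only and all-4 regions. Centres within 500 bp gave 7 WT-only regions, and joining within 1000 bp moved no count by over 1.5 times. Leaving out 1 library gave 325 to 3076 KO-only, 4 to 106 WT-only and 56 to 100 all-4 regions, 38 to 42 regions with non-overlapping ranks, and 17 to 21 KO-only regions among the 60 best. With 1 library fewer, a class asks less of a region. The KO-only count rose to 3076 and 1403 without KO replicates 1 and 2, and the WT-only count to 53 and 106 without WT replicates 1 and 2; the all-4 count rose to 100 without WT replicate 2. The log2 ratio of peak number was 3.18 with the score limit and 3.19 to 4.25 with 1 library left out. With the replicate block it was 3.72 (exact sign-flip test, p = 0.500, the smallest that 2 pairs allow); nothing says that equal numbers pair the libraries, and 2 pairs are too few to check it. Among the 10 widest rank gaps, only those at chrY:13480990-13486651 and chr1:142535237-142540183 could be recomputed with the score limit, and they fell in size from -29.5 to -5 and from -31 to -13.5 places (among 22 regions). That of STIP1 was 15.5 in place of 25 without WT replicate 1. No gap of the 10 changed sign in a setting that gave a value. The cause of these shifts was not tested. Promoter shares and elements within peaks, with their alternative settings, were not run, since no hg19 annotation or genome was used. Unknown depth limits every count here.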
